A study of Mus musculus with 30 samples.

Results

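The 10 genes described here encode nuclear receptors of the liver: *Hnf4a*, *Nr1h4*, *Nr0b2*, *Nr1i2*, *Nr1i3*, *Ppara*, *Pparg*, *Nr1h3*, *Nr5a2* and *Rxra*. They were taken by gene symbol from the table of gene-level counts, in which each of the 10 symbols matched 1 of 55450 rows, and they are described across the 6 groups of the study. The study read the liver mRNA of male mice in 3 experiments, of 5 *Cebpa* fl/fl mice and 5 mice with *Cebpa* deleted in hepatocytes in each, with 1 library per mouse. All 6 groups carried the floxed *Cebpa* alleles and received HFCFD, a diet rich in fat, cholesterol and fructose that induces metabolic dysfunction-associated steatohepatitis (MASH). In HFCFD2W the diet lasted 2 weeks and the knockout was *Cebpa* ΔHep, in which an albumin promoter drives Cre in hepatocytes without induction. In HFCFD8W+T10D, called T10D from here on, the labels give 8 weeks of diet and 10 days of tamoxifen, in HFCFD12W+T10W, called T10W, 12 weeks of diet and 10 weeks of tamoxifen, each for both genotypes, and the knockout was *Cebpa* ΔHep,ERT2, in which tamoxifen switches on an albumin-driven Cre in the adult. Tamoxifen was given at the end of the diet, so that T10W had 12 weeks of diet before and 10 weeks during tamoxifen, 22 weeks in all; whether the 10 days of T10D fell within or after the 8 weeks is not given in the sources used here. The mice were backcrossed to C57BL/6N, and their ages are not given in the labels. The comparisons ask what the loss of CEBPA, a transcription factor of hepatocyte identity, does to the mRNA of these receptors under a diet that induces MASH.

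Nuclear receptors are transcription factors that bind DNA at short hexamer elements and, for most of them, change their activity when a small lipophilic ligand binds. HNF4A is a regulator of hepatocyte identity, FXR (*Nr1h4*) is the bile acid sensor and SHP (*Nr0b2*) its induced repressor, and LRH-1 (*Nr5a2*) supports bile acid synthesis. PXR (*Nr1i2*) and CAR (*Nr1i3*) sense drugs and other foreign compounds, PPARα (*Ppara*) drives fatty acid oxidation, PPARγ (*Pparg*) lipid storage, and LXRα (*Nr1h3*) responds to oxysterols. RXRα (*Rxra*) is the common partner with which FXR, PXR, CAR, both PPARs and LXRα form heterodimers.

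The receptors were read from libraries of 7996123 to 10257347 counts with 14793 to 17342 genes detected, and each receptor held at least 45 counts in every library. Levels within an experiment are given as CPM, the counts relative to library size, with library sizes scaled by TMM, which trims the genes with extreme ratios, and genotype effects as log2 fold changes of knockout over *Cebpa* fl/fl from edgeR's quasi-likelihood test, with p-values adjusted by Benjamini-Hochberg over all genes tested. An effect is said to have passed, and a gene to have risen or fallen, at an adjusted p under 0.05. *Cebpa* itself fell in every experiment, with log2 fold changes of -5.23, -3.04 and -2.38, and no knockout mouse reached the range of its *Cebpa* fl/fl group. In T10D, *Cebpa* ΔHep,ERT2 replicate 4 stood apart from the other mice of its group. Its summed level of 10 hepatocyte markers, on average mostly *Alb*, was 108339 CPM against 52239 to 72674 CPM. Its TMM factor was 0.882 against 1.011 to 1.22. TMM factors ran from 0.849 to 0.917 in *Cebpa* fl/fl and from 1.11 to 1.19 in *Cebpa* ΔHep,ERT2 livers of T10W, so that scaling by library totals alone moved the median log2 fold change of all genes from 0.01 to 0.19 in T10D and to 0.38 in T10W. Values under library totals are therefore given beside the calls that depend on this choice. In whole liver, fewer cells of a type and less RNA per cell cannot be told apart.

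Promoter sequences are shown for 4 receptors because CEBPA is itself a promoter-binding factor: *Hnf4a*, *Nr1h4* and *Nr1i3*, which fell, and *Pparg*, whose genotype effect differed between the inducible experiments. Each is the 250 bases before an annotated start from RefSeq (GRCm38.p6), written 5′ to 3′ on the strand of the gene. Capitals mark matches to TTGCNNAA, a C/EBP element, or to AGGTCA, the hexamer of nuclear receptors, on either strand.
*Hnf4a* (chr2:163546905-163547154, plus strand): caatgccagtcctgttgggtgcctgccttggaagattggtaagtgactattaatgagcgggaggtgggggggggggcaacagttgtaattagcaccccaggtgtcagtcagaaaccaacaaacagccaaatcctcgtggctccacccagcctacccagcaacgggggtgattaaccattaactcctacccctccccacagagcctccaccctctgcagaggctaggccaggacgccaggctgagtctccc
*Nr1h4* (chr10:89506659-89506908, minus strand): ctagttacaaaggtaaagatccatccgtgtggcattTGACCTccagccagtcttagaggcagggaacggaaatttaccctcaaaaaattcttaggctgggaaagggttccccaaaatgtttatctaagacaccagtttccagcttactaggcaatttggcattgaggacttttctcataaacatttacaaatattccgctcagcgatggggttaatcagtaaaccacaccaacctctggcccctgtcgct
*Nr1i3* (chr1:171213720-171213969, plus strand): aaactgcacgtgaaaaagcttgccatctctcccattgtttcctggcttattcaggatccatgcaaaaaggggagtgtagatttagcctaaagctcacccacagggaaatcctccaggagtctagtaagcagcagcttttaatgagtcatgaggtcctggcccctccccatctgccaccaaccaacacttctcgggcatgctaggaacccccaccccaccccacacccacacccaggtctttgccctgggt
*Pparg* (chr6:115421816-115422065, plus strand): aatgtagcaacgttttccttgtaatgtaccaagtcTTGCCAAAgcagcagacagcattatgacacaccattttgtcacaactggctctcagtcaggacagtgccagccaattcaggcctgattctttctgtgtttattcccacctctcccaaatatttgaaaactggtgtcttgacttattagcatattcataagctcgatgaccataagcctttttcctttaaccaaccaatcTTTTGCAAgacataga

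The printed *Pparg* window, which lies inside the longer annotated *Pparg* transcripts, held 2 matches to TTGCNNAA, and the *Nr1h4* window held 1 match to AGGTCA on the opposite strand. The other RefSeq windows of *Pparg*, which lie upstream, held no match to TTGCNNAA and 1 match each to AGGTCA. Over the 16 RefSeq windows of the 10 receptors, TTGCNNAA occurred in 2 windows, the printed one of *Pparg* and 1 of *Nr5a2*, beside 9.56% of 32851 windows of all genes. AGGTCA occurred in 5 of the 16 windows, beside 14% of all windows. The stricter C/EBP palindrome TTGCGCAA, a special case of TTGCNNAA, and the HNF4 element CAAAGTCCA occurred in none of the 16 windows, beside 0.164% and 0.384% of all windows. All motifs were searched on both strands.

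Receptor mRNA was lower rather than higher in knockout livers wherever the test was passed with TMM, although *Pparg* rose in T10W under library totals, and the number of receptors that passed was larger in the inducible experiments. In HFCFD2W, 2 of 10 receptors fell in *Cebpa* ΔHep livers, *Nr1h4* and *Nr1h3*, where 8.09% of the 11068 genes tested were lower. In T10D 6 fell, *Hnf4a*, *Nr1h4*, *Nr1i2*, *Nr1i3*, *Ppara* and *Pparg*, where 6.85% of 11990 genes were lower. In T10W 9 fell, all but *Pparg*, where 23.8% of 12463 genes were lower. The median log2 fold change of the 10 receptors was -0.20, -0.50 and -0.76 in the 3 experiments, against 0.01 in each over all genes tested. No receptor rose in any experiment by edgeR or by DESeq2, where 8.6%, 10.3% and 27.4% of genes rose by edgeR, and none with a log2 fold change above 0 had an unadjusted p under 0.05.

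Under library totals, 2 receptors fell in HFCFD2W, 2 in T10D (*Nr1i3* and *Ppara*) and 6 in T10W, where 6.31%, 3.19% and 7.72% of genes were lower. *Pparg* rose in T10W under that scaling, by which 8.6%, 16.9% and 56.6% of genes were higher in the 3 experiments. Without *Cebpa* ΔHep,ERT2 replicate 4, 5 receptors fell in T10D. Every knockout mouse was below every *Cebpa* fl/fl mouse in CPM for 2, 5 and 9 receptors, where 6.13%, 5.28% and 16.8% of all genes tested were so.

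**Figure D1:**
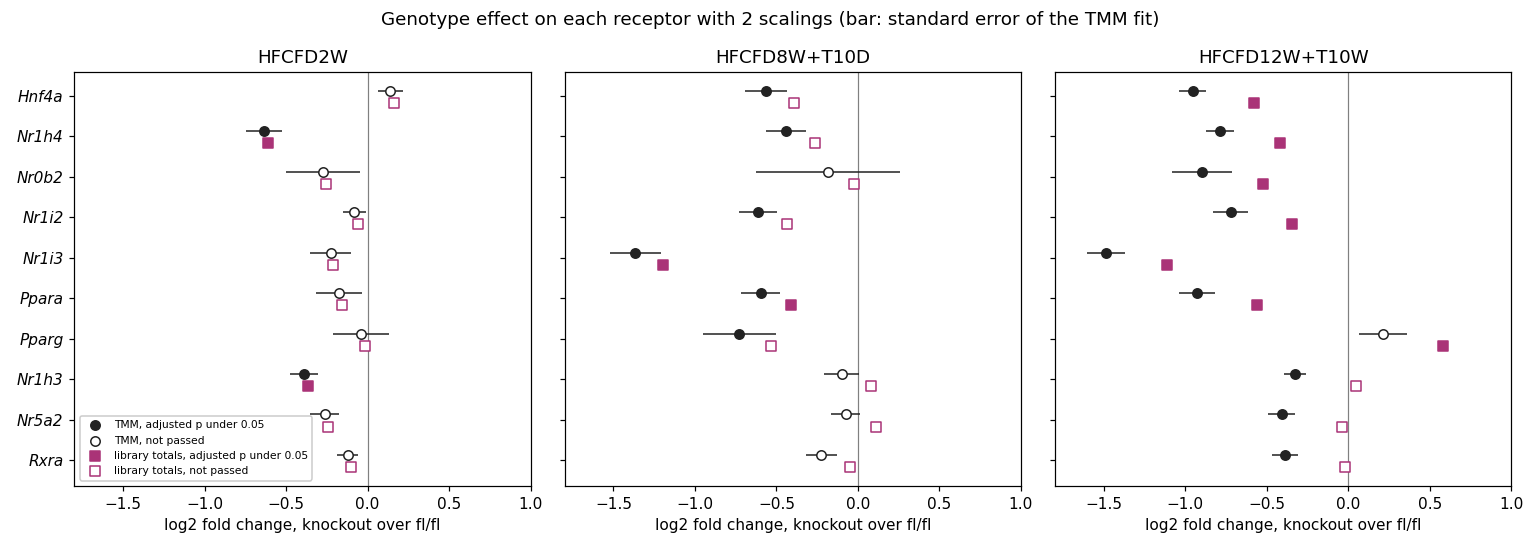
Log2 fold change of knockout over *Cebpa* fl/fl (horizontal axis) for the 10 receptors in the 3 experiments, with TMM scaling (circles, with the standard error as a bar) and with library totals (squares); filled symbols have an adjusted p under 0.05. With TMM 2, 6 and 9 circles are filled, all left of 0, and in T10W the squares of *Nr1h3*, *Nr5a2* and *Rxra* lie near 0 and that of *Pparg* is filled at 0.58. Under library totals the median of all genes in T10W is 0.38.

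*Hnf4a* (chr2:163506808-163572910, plus strand, GRCm38) did not pass after 2 weeks of HFCFD in *Cebpa* ΔHep livers and fell in both inducible experiments, of which the call after 10 days of tamoxifen did not hold under library totals. In HFCFD2W the *Cebpa* fl/fl mice had 359.8, 388, 388, 408 and 428 CPM and the *Cebpa* ΔHep mice 401, 415, 428, 437 and 491 CPM. In T10D the values were 657, 659, 679, 749 and 872 CPM in *Cebpa* fl/fl and 420.1, 463, 487, 513 and 563 CPM in *Cebpa* ΔHep,ERT2 mice. In T10W they were 725, 730.2, 849.7, 850.0 and 874 CPM and 382, 396, 414, 437 and 449 CPM. The genotypes overlapped in HFCFD2W and were separate in both inducible experiments, where every knockout mouse was below every *Cebpa* fl/fl mouse. The log2 fold change was 0.14 (adjusted p = 0.238) in HFCFD2W, -0.56 ± 0.13 (SE, n = 5 against 5), adjusted p = 0.0104, in T10D, and -0.96 ± 0.08 (SE, n = 5 against 5), adjusted p = 2.21e-06, in T10W by edgeR. With library totals it was -0.39 (adjusted p = 0.0573) in T10D, which ends that call, and -0.58 (adjusted p = 5.04e-05) in T10W.

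Of the bile acid receptors, *Nr1h4* (chr10:89454234-89533585, minus strand), encoding FXR, was the only one of the 10 that fell in all 3 experiments, where 1.95% of the 10950 genes tested in all 3 did so. In HFCFD2W the *Cebpa* fl/fl mice had 72.8, 78.1, 83.6, 85.5 and 94.8 CPM and the *Cebpa* ΔHep mice 43.8, 45.8, 54.9, 55.4 and 66.5 CPM. In T10D the *Cebpa* fl/fl mice had 98.8, 101, 107, 112 and 119 CPM and the *Cebpa* ΔHep,ERT2 mice 63.4, 67.01, 82.002, 88.2 and 96.6 CPM. In T10W the values were 84.8, 89.1, 93.7, 102 and 104 CPM and 47.1, 52.5, 55.6, 55.6 and 63.1 CPM. Every knockout mouse lay below every *Cebpa* fl/fl mouse of its experiment. The log2 fold changes were -0.64 ± 0.11 (SE, n = 5 against 5), adjusted p = 0.00185, in HFCFD2W, -0.44 ± 0.12 (SE, n = 5 against 5), adjusted p = 0.0257, in T10D, and -0.79 ± 0.09 (SE, n = 5 against 5), adjusted p = 1.12e-05, in T10W by edgeR. The call in T10D was lost in 4 of the 10 fits that left out 1 mouse (without *Cebpa* fl/fl replicate 4 or 5, or *Cebpa* ΔHep,ERT2 replicate 2 or 3; adjusted p at most 0.0679) and with library totals, -0.26 (adjusted p = 0.226).

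*Nr0b2* (chr4:133553376-133556536, plus strand), encoding SHP, which FXR induces and which has no DNA-binding domain, fell in T10W and varied widely among the *Cebpa* fl/fl mice of T10D. The *Cebpa* fl/fl mice of T10D had 5.16, 6.67, 6.77, 15.2 and 26.3 CPM and the *Cebpa* ΔHep,ERT2 mice 5.41, 6.47, 9.84, 15.2 and 16.05 CPM. In T10W they had 28.6, 30.8, 39.3, 41.5 and 46.4 CPM and 15.6, 15.7, 16.98, 23.8 and 28.1 CPM. The genotypes overlapped after 10 days of tamoxifen, with the highest mouse a *Cebpa* fl/fl mouse, and were separate after 10 weeks, by a narrow gap. Its log2 fold change was -0.27 (adjusted p = 0.45) in HFCFD2W, -0.18 (adjusted p = 0.821) in T10D and -0.90 ± 0.18 (SE, n = 5 against 5), adjusted p = 0.00128, in T10W, where library totals gave -0.52 (adjusted p = 0.0228) in edgeR. Without *Cebpa* fl/fl replicate 1, the mouse at 26.3 CPM, the value in T10D was 0.31 (adjusted p = 0.632).

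*Nr5a2* (chr1:136842571-136960448, minus strand), encoding LRH-1, ranged from 36.4 to 48.9 CPM in *Cebpa* fl/fl and 32.2 to 40.5 CPM in *Cebpa* ΔHep mice of HFCFD2W, from 36.3 to 42.7 CPM and 35.1 to 43.2 CPM in T10D, and from 49.4 to 65.8 CPM and 39.1 to 46.3 CPM in T10W. The genotypes were separate only in the last of the 3 experiments. Its log2 fold change was -0.26 (adjusted p = 0.0592), -0.08 (adjusted p = 0.621) and -0.41 ± 0.08 (SE, n = 5 against 5), adjusted p = 0.00133 by edgeR, and the fall in T10W depended on the scaling, with a value of -0.04 (adjusted p = 0.697) under library totals. Relative to the median of all genes under that scaling *Nr5a2* stood at -0.42 in T10W. In HFCFD2W it passed without *Cebpa* fl/fl replicate 1 (adjusted p = 0.0269) or *Cebpa* ΔHep replicate 6 (adjusted p = 0.0485) and in the fit of all 30 libraries (adjusted p = 0.0358). In T10D its direction turned under library totals, to 0.11 (adjusted p = 0.616).

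Of the xenobiotic receptors, *Nr1i3* (chr1:171213970-171220701, plus strand), encoding CAR, had the lowest log2 fold change of the 10 in both inducible experiments and was the only one to fall more than 2-fold, there, where 2.01% and 3.47% of genes did so, against 1.38% in HFCFD2W. In HFCFD2W the *Cebpa* fl/fl mice had 48.8, 48.8, 50.7, 56.8 and 67.8 CPM and the *Cebpa* ΔHep mice 33.1, 48.6, 49.4, 50.05 and 52.3 CPM. In T10D the values were 62.2, 68.6, 71.8, 79.5 and 114 CPM in *Cebpa* fl/fl and 25.9, 28.3, 31.3, 34.01 and 34.3 CPM in *Cebpa* ΔHep,ERT2 mice. In T10W they were 88.1, 102, 106, 136 and 136 CPM and 38.3, 38.7, 39.8, 41.8 and 43.9 CPM. Knockout livers of the inducible experiments held 38.9% and 35.7% of the mean *Cebpa* fl/fl level, and their highest mouse was well below the lowest *Cebpa* fl/fl mouse. The log2 fold change was -0.23 (adjusted p = 0.241) in HFCFD2W, -1.37 ± 0.16 (SE, n = 5 against 5), adjusted p = 0.000121, in T10D, and -1.49 ± 0.12 (SE, n = 5 against 5), adjusted p = 9.19e-07, in T10W, and under library totals -1.20 (adjusted p = 0.000379) and -1.11 (adjusted p = 5.4e-06) in the inducible experiments by edgeR. *Nr1i3* overlaps the protein-coding gene *Tomm40l* on the opposite strand, which averaged 106 counts against 534 for *Nr1i3*; the libraries were stranded, but the strand setting of the counting is not given in the sources used here.

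*Nr1i2* (chr16:38248323-38294824, minus strand), encoding PXR, fell in both inducible experiments, of which the call after 10 days of tamoxifen did not hold under library totals. The *Cebpa* fl/fl mice had 64.7, 66.3, 68.2, 84.04 and 89.9 CPM and the *Cebpa* ΔHep,ERT2 mice 43.7, 44.4, 47.5, 53.5 and 55.03 CPM in T10D. In T10W they had 84.6, 91.4, 101, 110.1 and 111 CPM and 48.3, 57.9, 59.1, 64.4 and 71.7 CPM. The genotypes were separate in both, whereas in HFCFD2W *Cebpa* fl/fl mice (38.1 to 43.9 CPM) and *Cebpa* ΔHep mice (35.1 to 41.6 CPM) overlapped. Its log2 fold change was -0.08 (adjusted p = 0.461), -0.61 ± 0.12 (SE, n = 5 against 5), adjusted p = 0.00417, and -0.72 ± 0.11 (SE, n = 5 against 5), adjusted p = 0.000131, by edgeR. Under library totals it was -0.43 (adjusted p = 0.0609) in T10D, which ends the call, and -0.35 (adjusted p = 0.0157) in T10W.

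Of the lipid receptors, *Ppara* (chr15:85734983-85802819, plus strand) fell in both inducible experiments. After 10 days of tamoxifen the *Cebpa* fl/fl mice had 85.01, 104, 112, 126 and 129 CPM and the *Cebpa* ΔHep,ERT2 mice 66.2, 69.98, 71.8, 73.9 and 85.7 CPM. In T10W they had 163, 181, 204, 212 and 214 CPM and 81.1, 97.7, 104, 107 and 122 CPM. The lowest *Cebpa* fl/fl mouse and the highest knockout mouse just overlapped in the former, and no mice overlapped in the latter. The log2 fold change was -0.17 (adjusted p = 0.43) in HFCFD2W, -0.60 ± 0.12 (SE, n = 5 against 5), adjusted p = 0.0058, in T10D, and -0.93 ± 0.11 (SE, n = 5 against 5), adjusted p = 2.2e-05, in T10W by edgeR, and both calls of the inducible experiments were kept under library totals, at -0.41 (adjusted p = 0.0329) and -0.56 (adjusted p = 0.00061).

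*Pparg* (chr6:115360951-115490399, plus strand), with the lowest median count of the 10 over all libraries, was the only one that did not pass as lower in T10W. In HFCFD2W the *Cebpa* fl/fl mice had 5.21, 6.55, 6.77, 7.62 and 9.35 CPM and the *Cebpa* ΔHep mice 5.06, 6.50, 6.74, 8.06 and 8.23 CPM. In T10D the values were 7.36, 12.8, 13.3, 14.3 and 18.7 CPM in *Cebpa* fl/fl and 6.08, 6.66, 7.34, 9.35 and 10.5 CPM in *Cebpa* ΔHep,ERT2 mice. In T10W they were 9.88, 10.9, 12.5, 15.7 and 16.9 CPM and 12.6, 14.9, 15.5, 16.7 and 16.7 CPM. The genotypes overlapped in all 3 experiments; most knockout mice were in the lower part of the range after 10 days of tamoxifen and most were in its upper part after 10 weeks. Its log2 fold change was -0.04 (adjusted p = 0.908) in HFCFD2W, -0.73 ± 0.22 (SE, n = 5 against 5), adjusted p = 0.0409, in T10D, and 0.21 ± 0.15 (SE, n = 5 against 5), adjusted p = 0.249, in T10W by edgeR. The call in T10D was lost in 7 of the 10 fits without 1 mouse (adjusted p 0.0601 to 0.107; each *Cebpa* fl/fl mouse but replicate 3, and *Cebpa* ΔHep,ERT2 replicates 3, 4 and 5) and under library totals, -0.53 (adjusted p = 0.169). In T10W library totals gave 0.58 (adjusted p = 0.00552), so that *Pparg* rose under that scaling only. Relative to the median of all genes under that scaling it stood at 0.19.

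*Nr1h3* (chr2:91184061-91202834, minus strand), encoding LXRα, was lower in HFCFD2W, where the *Cebpa* fl/fl mice had 65.8, 77.9, 81.6, 90.7 and 90.8 CPM and the *Cebpa* ΔHep mice 58.1, 59.2, 63.5, 63.9 and 65.5 CPM. The lowest *Cebpa* fl/fl mouse was just above the highest *Cebpa* ΔHep mouse. The log2 fold change was -0.39 ± 0.09 (SE, n = 5 against 5), adjusted p = 0.00917, in HFCFD2W, -0.10 (adjusted p = 0.573) in T10D and -0.33 ± 0.07 (SE, n = 5 against 5), adjusted p = 0.00156, in T10W by edgeR. In the inducible experiments its direction turned under library totals, to 0.08 (adjusted p = 0.698) and 0.05 (adjusted p = 0.625); relative to the median of all genes under that scaling it stood at -0.11 and -0.34. In T10W the ranges were 81.3 to 90.6 CPM in *Cebpa* fl/fl and 63.1 to 76.7 CPM in *Cebpa* ΔHep,ERT2 mice.

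*Rxra* (chr2:27676440-27762957, plus strand), the shared partner, fell in T10W by less than *Hnf4a*, the other abundant receptor, and that call did not hold under library totals. Its mean level in *Cebpa* fl/fl and knockout mice was 432 ± 14.2 and 396 ± 14.9 CPM (SD, n = 5) in HFCFD2W, 358 ± 21.2 and 306 ± 13.4 CPM in T10D, and 474 ± 32.1 and 362 ± 27.1 CPM in T10W. The ranges were separate in both inducible experiments and overlapped in HFCFD2W. Its log2 fold change was -0.12 (adjusted p = 0.203), -0.22 (adjusted p = 0.128) and -0.39 ± 0.08 (SE, n = 5 against 5), adjusted p = 0.00116, by edgeR. With DESeq2 the value in T10D was -0.24 and passed (adjusted p = 0.00715), and under library totals that in T10W was -0.02 (adjusted p = 0.818) and did not. Relative to the median of all genes under library totals *Rxra* stood at -0.40 in T10W.

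**Figure D2:**
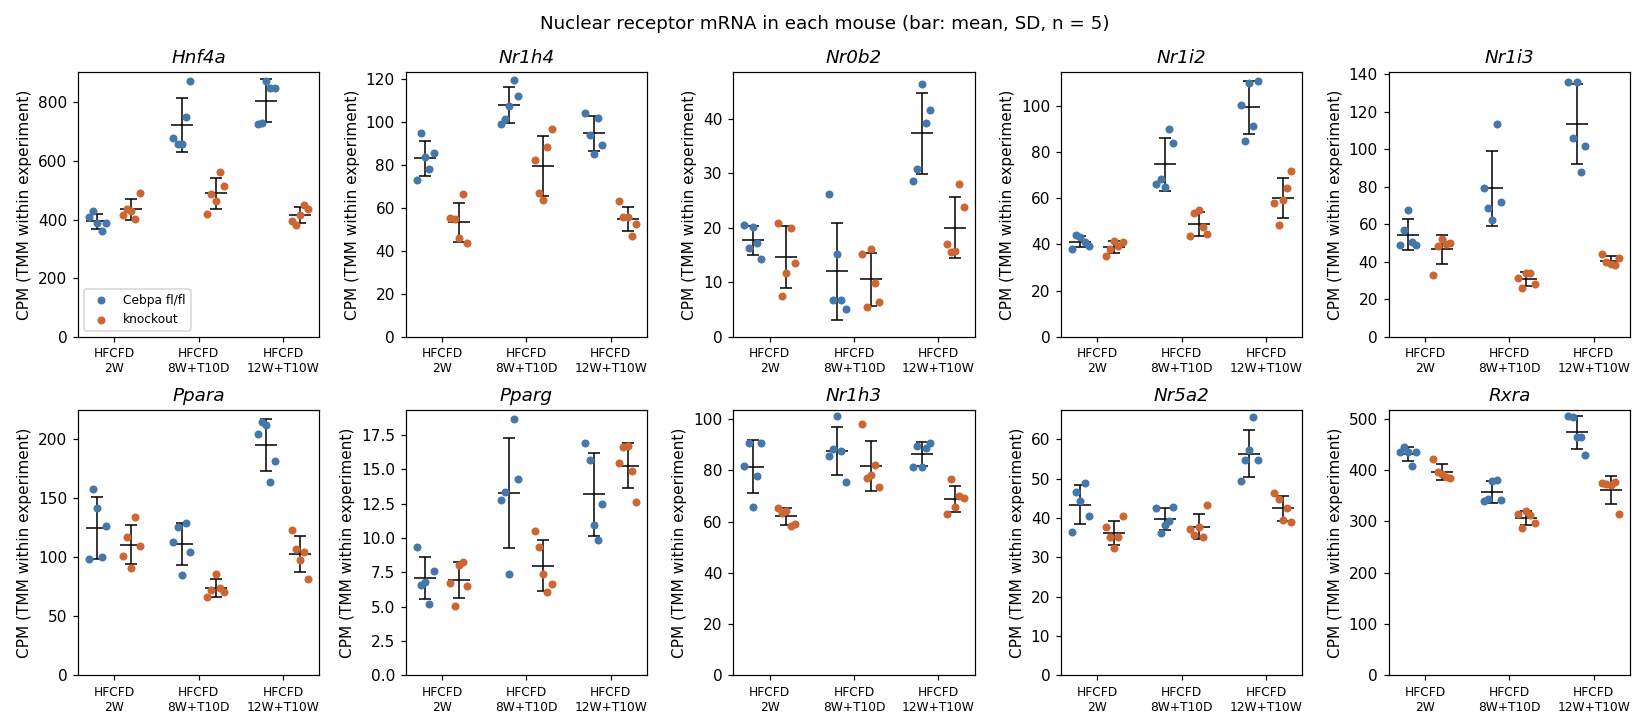
CPM (vertical axes, TMM within experiment) of the 10 receptors in each mouse of the 3 experiments, *Cebpa* fl/fl in blue and knockout in orange, with the mean and SD of 5 mice. *Nr1h4* is lower in knockout mice of all 3 experiments, *Nr1i3* separates most clearly in the inducible experiments, and *Pparg* overlaps in all 3.

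Whether a genotype effect differed between experiments was tested as an interaction in 1 edgeR fit of all 30 libraries and 12964 genes. The Cre line, the length of diet and the tamoxifen changed together between HFCFD2W and the inducible experiments and cannot be told apart, and the 3 tests share groups. From HFCFD2W to T10D the effect became more negative for *Hnf4a*, *Nr1i3* and *Nr1i2*. The difference of the log2 fold changes was -0.72 ± 0.13 (SE), adjusted p = 0.000512, for *Hnf4a*, -1.15 ± 0.20 (SE), adjusted p = 0.000416, for *Nr1i3*, and -0.55 ± 0.15 (SE), adjusted p = 0.0135, for *Nr1i2*. These were 3 of 10 receptors, where 11.2% of all genes passed, 6.79% more negative and 4.45% more positive. The difference for *Nr1i2* did not pass under library totals, -0.37 (adjusted p = 0.159), whereas that of *Nr1h3* passed under that scaling only, at 0.44 (adjusted p = 0.0314). With TMM the difference of *Nr1h3* was 0.28 (adjusted p = 0.156). Under library totals the median log2 fold change of all genes was 0.03 in HFCFD2W and 0.19 in T10D. The difference of *Pparg*, -0.70 (adjusted p = 0.106), passed only without *Cebpa* fl/fl replicate 3 of T10D (adjusted p = 0.0308).

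From HFCFD2W to T10W, 5 of 10 receptors passed, where 30.7% of all genes did, 17.3% more negative and 13.4% more positive. The effect became more negative, with a difference of -1.30 (adjusted p = 3.06e-05) for *Nr1i3*, -1.14 (adjusted p = 7.04e-07) for *Hnf4a*, -0.79 (adjusted p = 0.00177) for *Ppara*, -0.68 (adjusted p = 0.000758) for *Nr1i2* and -0.31 (adjusted p = 0.0161) for *Rxra* in edgeR. Under library totals *Hnf4a* and *Nr1i3* kept the call, at -0.74 (adjusted p = 0.00028) and -0.90 (adjusted p = 0.00157), *Nr1i2* and *Ppara* did not, at -0.29 (adjusted p = 0.191) and -0.41 (adjusted p = 0.0951), and the direction of *Rxra* turned, to 0.08 (adjusted p = 0.591). The call for *Rxra* was also lost without *Cebpa* fl/fl replicate 2 (adjusted p = 0.0614) or *Cebpa* ΔHep,ERT2 replicate 5 (adjusted p = 0.0606) of T10W. It was lost as well without a filter on low counts (adjusted p = 0.0692). *Nr1h3* passed under library totals only, at 0.41 (adjusted p = 0.0211), against 0.02 (adjusted p = 0.909) with TMM. Under library totals the median log2 fold change of all genes was 0.03 in HFCFD2W and 0.38 in T10W.

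Between the inducible experiments, *Pparg* was the only receptor that passed with a higher effect in T10W than in T10D, the difference being 0.91 ± 0.27 (SE), adjusted p = 0.0282, and 1.11 (adjusted p = 0.0191) under library totals. The effect was more negative for *Hnf4a*, with a difference of -0.42 ± 0.13 (SE), adjusted p = 0.0352, and for *Nr5a2*, with -0.36 ± 0.12 (SE), adjusted p = 0.0488. These were 3 of 10 receptors, where 10.5% of all genes passed, 5.49% more negative and 4.97% more positive. The call for *Hnf4a* was lost in 14 of 30 fits without 1 mouse, all 14 of the inducible experiments, and that for *Nr5a2* in 21, with mice of all 3 experiments among them. Neither passed under library totals, -0.19 (adjusted p = 0.424) and -0.15 (adjusted p = 0.573), or without a filter on low counts, and that for *Nr5a2* did not pass with RLE or DESeq2 either. The call for *Pparg* was lost in 2 of 30, those without *Cebpa* fl/fl replicate 4 (adjusted p = 0.0601) or *Cebpa* ΔHep,ERT2 replicate 4 (adjusted p = 0.0623) of T10D. *Nr1i3* differed by -0.15 (adjusted p = 0.705) between the inducible experiments, and *Nr1h4* by -0.38 (adjusted p = 0.123).

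The *Cebpa* fl/fl livers alone also differed between experiments, in which diet and tamoxifen changed together. Those of HFCFD2W also belonged to the experiment with another Cre line. Age and sampling time, which the labels do not give, cannot be told apart from these. From HFCFD2W to T10D 7 of 10 receptors passed, where 43.6% of all genes did, 22.2% higher and 21.5% lower. *Hnf4a* was higher by 0.60 (adjusted p = 7.1e-06), *Pparg* by 0.64 (adjusted p = 0.0101) and *Nr1i2* by 0.59 (adjusted p = 4.31e-05) on the log2 scale in edgeR, and *Rxra*, *Ppara*, *Nr5a2* and *Nr0b2* were lower, with differences of -0.54 (adjusted p = 4.98e-07), -0.43 (adjusted p = 0.00884), -0.39 (adjusted p = 0.000443) and -0.84 (adjusted p = 0.0462). From T10D to T10W 4 receptors passed, where 11.4% of all genes did (6.31% higher and 5.12% lower), all 4 higher: *Nr0b2* by 1.505 (adjusted p = 0.00336), *Ppara* by 0.67 (adjusted p = 0.00112), *Nr5a2* by 0.36 (adjusted p = 0.0049) and *Rxra* by 0.27 (adjusted p = 0.0104). Under library totals the first of these pairs of groups no longer passed for *Ppara*, -0.25 (adjusted p = 0.143), *Nr5a2*, -0.20 (adjusted p = 0.137), and *Nr0b2*, -0.65 (adjusted p = 0.12), and passed for *Nr1i3*, 0.46 (adjusted p = 0.0128). The call for *Nr0b2* was also lost in 19 of 30 fits without 1 mouse, with RLE, with DESeq2 and without a filter on low counts, and without that filter the call for *Rxra* from T10D to T10W was lost (adjusted p = 0.0614).

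Levels of different receptors were compared per transcript length, in TPM from the authors' RSEM files, a unit that corrects for length and, unlike the CPM above, is scaled to library totals without TMM. By mean TPM, *Hnf4a* and *Rxra* were the most abundant in every group and *Pparg* the least. *Hnf4a* averaged 102 ± 9.07 and 122 ± 7.29 TPM (SD, n = 5) in *Cebpa* fl/fl and knockout livers of HFCFD2W, 186 ± 37.4 and 145 ± 27.8 in T10D, and 205 ± 16.3 and 138 ± 10.003 in T10W. *Rxra* stayed between 81.9 and 112 TPM, and the genotypes of each experiment differed in mean by less than their SD. *Pparg* averaged 4.67 ± 1.13 TPM in *Cebpa* fl/fl livers of HFCFD2W and 12.5 ± 1.09 TPM in *Cebpa* ΔHep,ERT2 livers of T10W, its lowest and highest group.

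The middle of the order changed with genotype. In *Cebpa* fl/fl livers of T10W, *Ppara* (87.3 ± 10.02 TPM) and *Nr1i3* (77.4 ± 14.9) stood above *Nr1h3* (59.1 ± 5.30) and *Nr1h4* (56.8 ± 4.86). In the *Cebpa* ΔHep,ERT2 livers of that experiment *Nr1h3* (60.2 ± 5.64) and *Ppara* (58.6 ± 5.25) were level, above *Nr1h4* (42.4 ± 4.27), *Nr1i3* (37.7 ± 3.00) and *Nr1i2* (35.3 ± 5.44). Of the summed TPM of the 10 receptors, *Nr1i3* held 10.9% in *Cebpa* fl/fl and 7.02% in *Cebpa* ΔHep,ERT2 livers of T10W, and *Rxra* 15.8% and 20.3%. *Nr0b2* averaged 43.3 ± 8.04 TPM in *Cebpa* fl/fl and 30.1 ± 8.68 in *Cebpa* ΔHep,ERT2 livers of T10W, and *Nr5a2* 13.6 ± 1.30 and 13.4 ± 1.06.

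With the 6 groups of each receptor put in order of mean TPM, 4 of 50 neighbouring pairs had ranges that did not overlap: *Hnf4a* in *Cebpa* ΔHep above *Cebpa* fl/fl livers of HFCFD2W, *Nr1h3* in *Cebpa* fl/fl above *Cebpa* ΔHep livers of HFCFD2W, *Nr1i3* in *Cebpa* ΔHep livers of HFCFD2W above *Cebpa* ΔHep,ERT2 livers of T10D, and *Rxra* in *Cebpa* ΔHep livers of HFCFD2W above *Cebpa* fl/fl livers of T10D. The other neighbours in these orders overlapped. For 8 of the 10 receptors the highest group was a *Cebpa* fl/fl group, 7 of them in T10W, the exceptions being *Pparg*, highest in *Cebpa* ΔHep,ERT2 livers of T10W, and *Nr1h3*, highest in those of T10D. Neither the count of separate neighbours nor that of highest groups was set beside the same count over all genes.

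**Figure D3:**
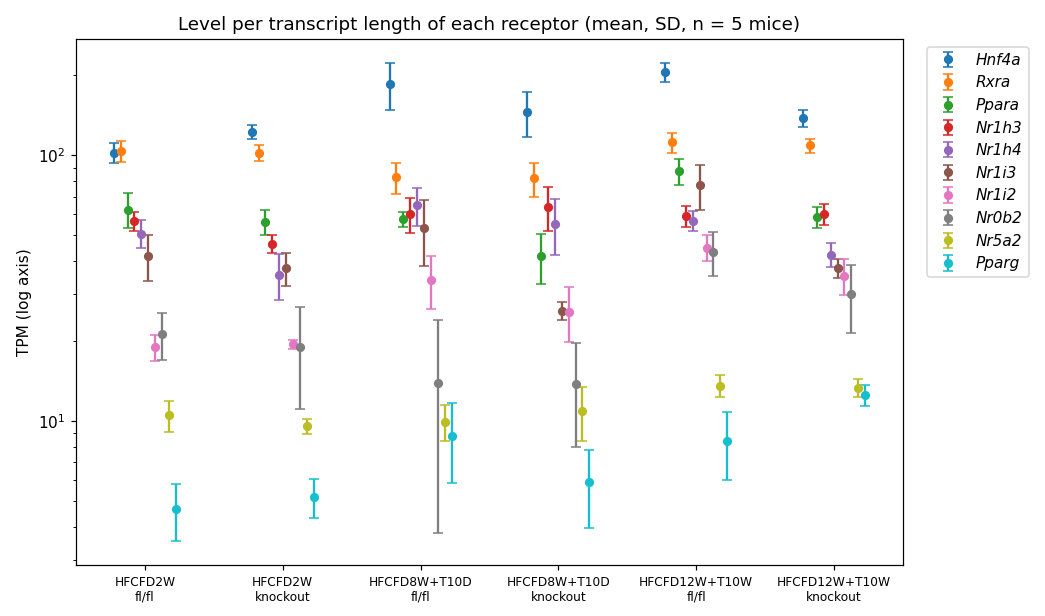
TPM (vertical log axis) of the 10 receptors in the 6 groups, as the mean and SD of 5 mice. *Hnf4a* and *Rxra* lie at the top and *Pparg* at the bottom of every group, and *Nr1i3* drops from 77.4 to 37.7 TPM in T10W.

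RSEM also gives each gene a transcript length weighted by the estimated share of its transcripts, which moves when the use of isoforms moves. It could vary for 8 receptors, since *Nr0b2* and *Nr1i2* have 1 annotated transcript. An exact two-sided permutation test per receptor and experiment, over the 252 arrangements of 10 mice, could not give a p below 0.00794, and 24 tests were adjusted together. None passed, and 4 had an unadjusted p under 0.05. A single test at the smallest p could not pass after the adjustment unless several others reached it too, so that the lack of a call says little. The *Nr1i3* length was 1775 ± 34.1 bases (SD, n = 5) in *Cebpa* fl/fl and 1689 ± 28.998 in *Cebpa* ΔHep,ERT2 livers of T10W (exact p = 0.00794, adjusted p = 0.0952), without overlap. In T10D it was 1795 ± 71.2 and 1655 ± 56.1 bases (exact p = 0.0238, adjusted p = 0.19), and in HFCFD2W 1631 ± 47.3 and 1664 ± 45.5 bases (exact p = 0.286). The *Hnf4a* length stayed between 4291 and 4362 bases in all 30 livers, close to the 4356 and 4362 bases of its 2 longest annotated transcripts, which start just downstream of the promoter printed above. It was 4354 ± 7.36 bases in *Cebpa* fl/fl and 4326 ± 21.3 bases in *Cebpa* ΔHep,ERT2 livers of T10W (exact p = 0.00794, adjusted p = 0.0952).

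Genes known as targets of these receptors were read from lists of textbook targets, which were drawn up with earlier results of these data known. Beside the counts that follow, 8.09%, 6.85% and 23.8% of all genes tested were lower in HFCFD2W, T10D and T10W, and 8.6%, 10.3% and 27.4% higher, with a median of 0.01 in each. Under library totals 3.19% and 7.72% were lower and 16.9% and 56.6% higher in T10D and T10W. Of 16 HNF4A targets tested, 4 fell and 2 rose in HFCFD2W, 2 fell in T10D and 13 fell in T10W, and the list's median effect was -0.05, -0.10 and -0.68 on the log2 scale. The sodium-taurocholate transporter gene *Slc10a1* fell from 419 to 68.6 mean CPM in T10W, a log2 fold change of -2.61 (adjusted p = 9.93e-07). *F7* and *Cyp27a1*, encoding coagulation factor VII and a sterol hydroxylase, were at -0.99 and -0.91 there, and *Pck1*, encoding a gluconeogenic enzyme, was at 1.35 (adjusted p = 0.00039) in HFCFD2W and -0.55 (adjusted p = 0.00342) in T10W by edgeR, the latter not passing under library totals. Under library totals 1 of the 16 fell and 1 rose in T10D, and 10 fell and 3 rose in T10W.

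Of 11 FXR-linked genes 9 were tested, of which 3 fell in HFCFD2W, 2 fell and 1 rose in T10D, and 3 fell and 1 rose in T10W (3 and 4 under library totals), with medians of -0.03, -0.15 and -0.09. The share lower in T10W was near that of all genes. The list holds genes that FXR induces and, with *Cyp7a1* and *Cyp8b1*, genes of bile acid synthesis that bile acids repress through FXR and SHP. *Cyp7a1*, the rate-limiting enzyme of bile acid synthesis, fell from 315 to 139 mean CPM in HFCFD2W and from 103 to 25.1 mean CPM in T10D, with log2 fold changes of -1.18 (adjusted p = 0.00172) and -2.03 (adjusted p = 0.000142) by edgeR. In T10W its log2 fold change of -0.64 (adjusted p = 0.103 by edgeR) did not pass. *Slc27a5* and *Baat*, which conjugate bile acids, were at -1.39 (adjusted p = 1.32e-06) and -0.83 (adjusted p = 2.21e-06) in T10W, and *Pltp*, encoding a phospholipid transfer protein, was at 1.00 (adjusted p = 0.000125) there in edgeR.

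Of the targets of PXR and CAR, 3 of 14 tested fell and 2 rose in HFCFD2W, 5 of 17 fell and 2 rose in T10D, and 10 fell and 2 rose in T10W, and these counts of the inducible experiments were 5 lower with 4 higher and 10 lower with 4 higher under library totals. *Cyp2c29* and *Ces2a*, which encode a cytochrome P450 and a carboxylesterase, fell by edgeR in T10W, at -2.33 (adjusted p = 2e-06) and -1.98 (adjusted p = 1.17e-06). *Cyp2b9* fell from 111 to 7.35 mean CPM in T10D. *Gstm3* and *Abcc4*, encoding a glutathione transferase and an efflux transporter, rose in all 3 experiments, *Gstm3* with log2 fold changes of 1.91, 4.24 and 3.57 and *Abcc4* with 1.53, 2.61 and 1.76. Members of the *Cyp2b*, *Cyp2c*, *Cyp3a* and *Gstm* families resemble each other in sequence, and RSEM divides reads that fit several of them.

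Of the PPARα targets, 1 of 15 fell and 2 rose in HFCFD2W, 4 of 16 fell in T10D and 13 of 16 fell in T10W, where 5 fell under library totals; the medians were -0.09, -0.23 and -0.59. *Acot1*, encoding an acyl-CoA thioesterase, was at -1.21 (adjusted p = 0.00775) in T10D and -1.78 (adjusted p = 3.96e-05) in T10W, and the mitochondrial carnitine carrier *Slc25a20* and the dehydrogenase *Acadl* at -0.49 and -0.51 in T10W by edgeR, the latter 2 genes not passing under library totals. Of the PPARγ targets in fatty liver, 1 of 10 fell and 1 rose in HFCFD2W, 3 of 11 fell and 1 rose in T10D (2 and 2 under library totals), and 4 of 11 fell and 3 rose in T10W (3 and 4 under library totals). *Lpl*, encoding lipoprotein lipase and listed for LXRα too, rose in all 3, from 41.4 to 151 mean CPM, from 38.4 to 174 mean CPM and from 37.5 to 188 mean CPM, and *Plin4*, a lipid droplet protein, fell from 49.1 to 3.91 mean CPM in T10D and from 37.3 to 8.39 mean CPM in T10W.

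Of 12 LXR targets, a list that includes *Nr1h3* itself, 4 fell and 1 rose in HFCFD2W, 1 fell and 3 rose in T10D, where none fell and 5 rose under library totals, and 6 fell and 2 rose in T10W, where 2 fell and 5 rose. *Srebf1*, the regulator of lipogenesis, fell from 642 to 283 mean CPM in HFCFD2W, a log2 fold change of -1.18 (adjusted p = 0.000106) in edgeR, and the sterol transporters *Abcg5* and *Abcg8* were at -0.68 and -0.70 there and at -1.18 and -1.22 in T10W. *Abcg1*, a sterol transporter of macrophages, rose in both inducible experiments, at 1.00 (adjusted p = 0.00793) and 1.03 (adjusted p = 0.000122), beside higher macrophage markers, whose part was not tested.

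Of 39 other nuclear receptors, 24 or 26 had enough counts to be tested, and 2 fell and 3 rose in HFCFD2W, 4 fell in T10D, and 10 fell and 2 rose in T10W, where 3 fell and 6 rose under library totals. In the inducible experiments the thyroid hormone receptor *Thrb* was at -0.68 (adjusted p = 0.000759) and -0.93 (adjusted p = 2.44e-05). The estrogen receptor *Esr1* rose from 10.4 to 37.3 mean CPM in HFCFD2W and fell from 52.2 to 38.3 mean CPM in T10W, a log2 fold change of -0.45 (adjusted p = 0.0174) in edgeR that did not pass under library totals. The circadian repressor *Nr1d1* fell from 39.7 to 15.6 mean CPM in HFCFD2W. Of 20 nuclear receptor coregulators, 5 rose in HFCFD2W, 2 fell in T10D, where none fell and 1 rose under library totals, and 8 fell and 2 rose in T10W, where none fell and 10 rose. The corepressor *Ncor1* was at 0.37 (adjusted p = 0.00861) in HFCFD2W and -0.52 (adjusted p = 0.000221) in T10W, and the coactivator *Ppargc1a* at 0.57 and -0.57 by edgeR, and neither passed in T10W under library totals.

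**Figure D4:**
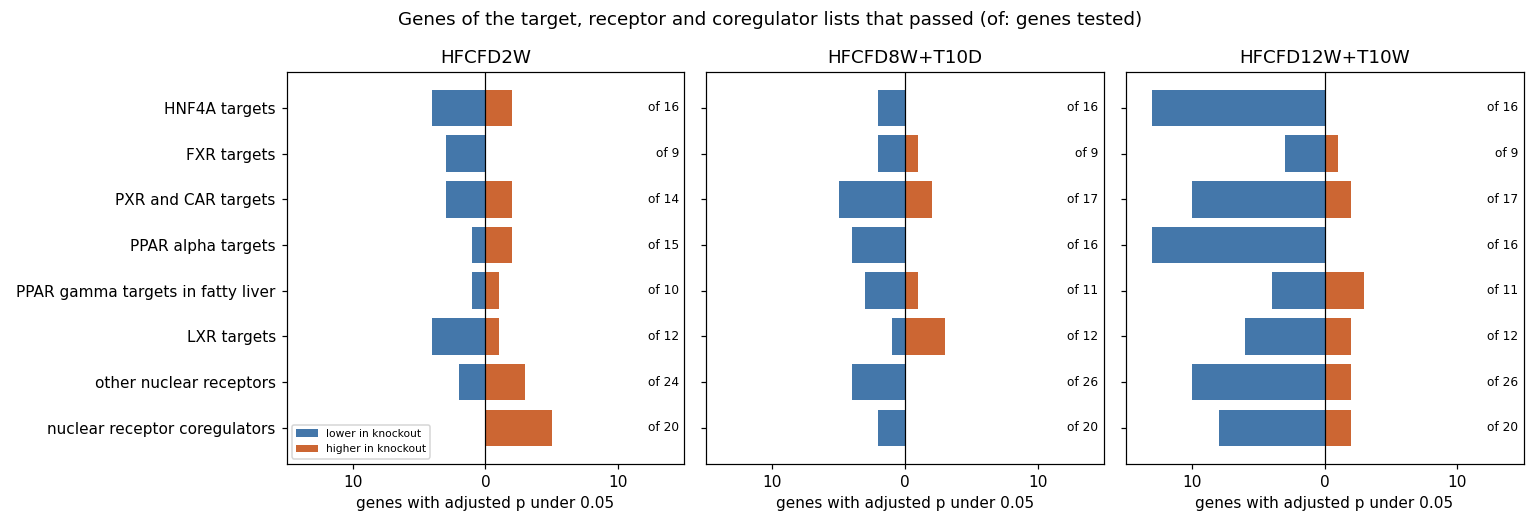
Number of genes that passed as lower (left of 0, blue) or higher (right of 0, orange) in knockout livers with TMM (adjusted p under 0.05), for 8 lists in the 3 experiments, with the number tested at the right edge. The bars of HNF4A and PPARα targets reach 13 of 16 lower in T10W; with library totals these were 10 and 5.

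Markers of liver cell types moved with genotype beside these results. Of 10 hepatocyte markers, 2 fell and 1 rose in HFCFD2W, 5 fell in T10D and 8 fell in T10W (under library totals 4 fell and 1 rose in T10D, and 6 fell and 1 rose in T10W). Their summed level was 98282 to 119877 CPM in *Cebpa* fl/fl and 105054 to 140948 CPM in *Cebpa* ΔHep livers of HFCFD2W, 112124 to 140645 and 52239 to 108339 CPM in the groups of T10D, and 107536 to 145533 and 54248 to 64811 CPM in those of T10W. The knockout livers of both inducible experiments lay below the range of their *Cebpa* fl/fl livers. Most of these sums was *Alb*. Its means in *Cebpa* fl/fl and knockout livers were 98438.5 and 51299.1 CPM in T10D and 87590.5 and 40814.2 CPM in T10W.

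Of 12 Kupffer cell and macrophage markers, 3 of 9 tested rose in HFCFD2W, 8 rose in T10D, and 8 rose and 2 fell in T10W, where summed levels were 364 to 1131 CPM in *Cebpa* fl/fl and 1186 to 1437 CPM in *Cebpa* ΔHep,ERT2 livers. Of 10 stellate cell and fibroblast markers, none rose in HFCFD2W, 3 rose in T10D and 10 in T10W, with summed levels of 369.9 to 468 and 1518 to 1879 CPM in the latter. The 8 cholangiocyte markers include *Spp1*, the gene on which the study centres, and summed to 40.9 to 78.6 and 347 to 574 CPM in HFCFD2W and 64.98 to 85.6 and 906 to 1263 CPM in T10W, where all 8 rose, after 2 of 4 tested in HFCFD2W and 4 of 7 in T10D. Most of these sums was *Spp1*, and without it the other 7 summed to 14.8 to 19.6 and 21.4 to 30.96 CPM in HFCFD2W and to 23.1 to 28.9 and 86.5 to 124 CPM in T10W. Of 8 endothelial markers, none passed in HFCFD2W, 1 fell in T10D and 2 in T10W, where none fell and 2 rose under library totals, and of 9 lymphocyte and neutrophil markers 1 of 4 tested rose in T10D and 5 of 5 in T10W. In 3 of the 6 groups *Ly6g* was at 0 in every mouse, and no other marker was at 0 throughout a group. The part of these markers in the receptor results was not tested.

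**Figure D5:**
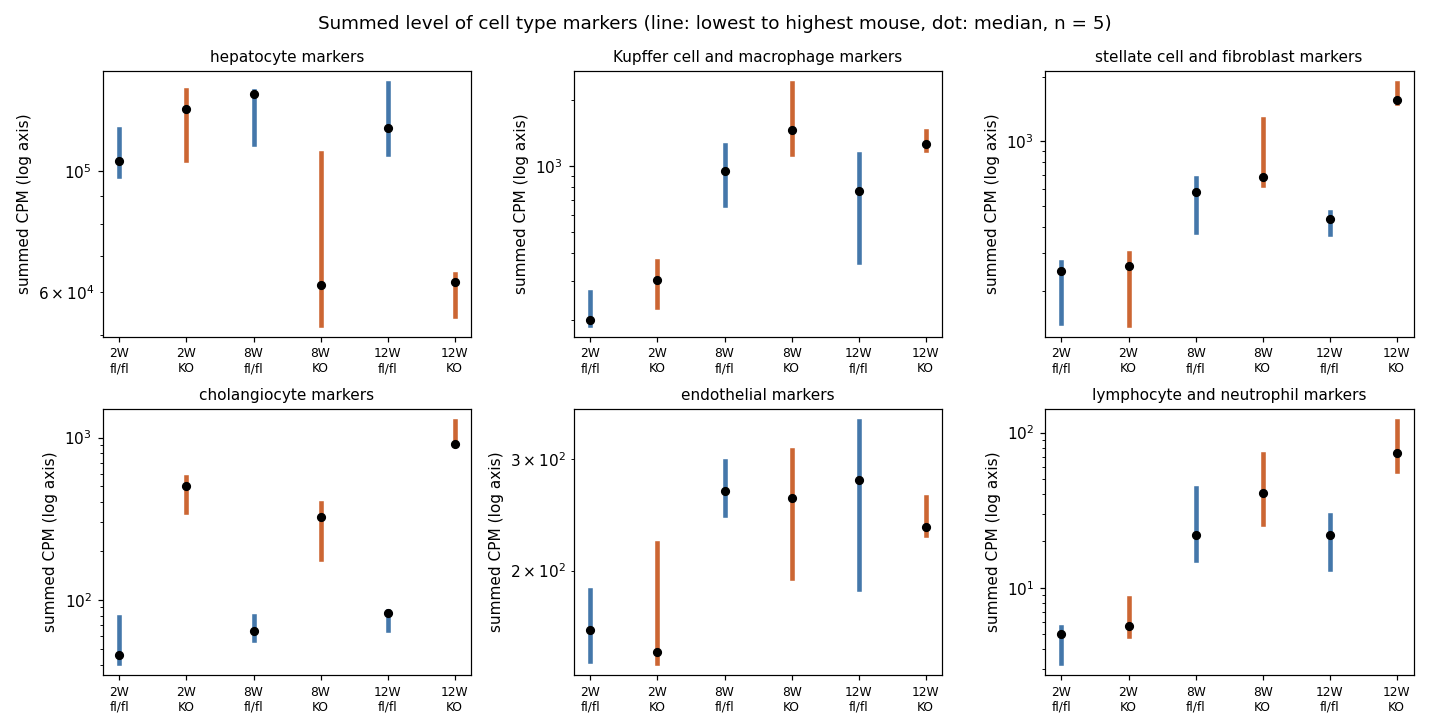
Summed CPM (vertical log axes) of the markers of 6 cell types in the 6 groups, from the lowest to the highest of 5 mice (line) with the median (dot), *Cebpa* fl/fl in blue and knockout (KO) in orange. Hepatocyte markers are lower in knockout livers of the inducible experiments, and macrophage, stellate cell and cholangiocyte markers are higher in those of T10W. *Alb* makes up most of the hepatocyte sums and *Spp1* most of the cholangiocyte sums.

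The genes most like each receptor were found by Pearson's r of log2 CPM over the 30 libraries, among 8963 genes with a mean of at least 5 CPM, as a description; the libraries fall into 6 groups, and values of 1 library share its depth and scaling. *Rxra* was most like *Ube3b* (r = 0.962), *Uox* (0.955) and *Klkb1* (0.955), and *Nr1i2* most like *Pex11a* (0.940), *Glt1d1* (0.887) and *Ptp4a1* (0.883). *Hnf4a* was most like *Garem1* (0.921), *Glt1d1* (0.909) and *Atg3* (0.904), *Nr1i3* most like *Pde3b* (0.923), *Acsm3* (0.919) and *F5* (0.904), and *Nr1h4* most like *Zfp707* (0.918), *Coq8a* (0.900) and *Extl1* (0.899). *Ppara* was most like *Gabpa* (0.901), *Mia2* (0.894) and *Sec24a* (0.888), *Nr1h3* most like *Apon* (0.854), *Nags* (0.846) and *Paqr9* (0.844), and *Nr5a2* most like *Herpud2* (0.862), *Wasl* (0.855) and *Setd1b* (0.841). The lowest values were those of *Nr0b2*, most like *Spry4* (0.774), *1810058I24Rik* (0.739) and *Slc25a37* (0.738), and of *Pparg*, most like *Osbpl3* (0.730), *Rdh9* (0.675) and *Phldb1* (0.669). After the group means were removed, r was 0.716 for *Nr1i2* with *Pex11a*, 0.711 for *Pparg* with *Osbpl3*, 0.692 for *Rxra* with *Ube3b* and 0.272 for *Nr1i3* with *Pde3b*.

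Among the receptors themselves, over the 30 libraries, r was highest between *Nr1i3* and *Ppara* (0.833), *Ppara* and *Rxra* (0.786), and *Hnf4a* and *Nr1i2* (0.765), and lowest between *Pparg* and *Nr1h3* (-0.295). After the group means were removed, which leaves the spread between mice of 1 group, it was 0.518 between *Hnf4a* and *Nr1i2*, 0.499 between *Nr1i3* and *Ppara* and 0.489 between *Nr1i2* and *Nr1i3*, with depth and scaling shared by the values of 1 library.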

How the data were processed

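Livers of 30 male mice were profiled by stranded mRNA sequencing, with 5 mice in each of 6 groups taken from the sample labels. Per the submitters' processing notes, Trimmomatic 0.36, STAR 2.5.1, Picard 1.84, RSEM 1.2.22 and DESeq2 were used with the mm10 build. The authors deposited RSEM expected counts per gene, and RSEM gene files with TPM and a transcript length weighted by isoform share; all 55450 identifiers matched GENCODE M21 (GRCm38). The table of the whole series held the same expected counts as the files of the single samples.

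The expected counts, which were not whole for 11.3% of values above 0, were rounded. Genotypes were compared within each experiment with edgeR 4.0.16 (filterByExpr, TMM, glmQLFit and glmQLFTest; R 4.3.3), with Benjamini-Hochberg adjustment over all genes tested and a threshold of 0.05. Differences between experiments came from 1 edgeR fit of all 30 libraries with 6 group means. Transcript lengths were compared by an exact two-sided permutation test (SciPy 1.17.1). The edgeR steps were tested on simulated data. Labels give separate mice, and the p-values weigh differences against the spread between these mice. They do not take in how far a repeated experiment would differ, which bears on the contrasts between experiments.

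The 10 receptors and all gene lists were chosen with earlier results of these data known. Named list genes are at most 3 per direction, list and experiment with the smallest p among those that passed; likeness names 3 genes per receptor. Alternatives were no filter on low counts, RLE size factors, DESeq2 1.42.0, a fit of all libraries, a replicate block, an adjusted p under 0.01, a fold over 2 and leaving out each mouse. Library totals without TMM were added after seeing the data. Depth ranged from 7996123 to 10257347 counts. *Pparg*, with 45 to 179 counts, and *Nr0b2*, with 51 to 363, had the lowest median counts of the 10. Their genotype effects also had the largest standard errors in each experiment. The parts of depth and of the spread between mice in this were not tested. Promoter windows came from RefSeq (GRCm38.p6); protein sequences were not used here.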

Additional observations from a re-analysis of the deposited data

Results flagged for a closer look

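In 3 of 60 groups of 5 mice, 1 mouse lay far from the others by Dixon's test, where chance gives about 1 in 20 groups. *Nr1i3* was 33.1 CPM in *Cebpa* ΔHep replicate 2 of HFCFD2W against 48.6 to 52.3 CPM in the other mice. *Rxra* was 408 CPM in *Cebpa* fl/fl replicate 4 of HFCFD2W against 434.7 to 445 CPM, and 314 CPM in *Cebpa* ΔHep,ERT2 replicate 5 of T10W against 371 to 377 CPM.

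The genotype effect differed between experiments, by edgeR's interaction test in 1 fit of all libraries, for 11 pairs of receptor and contrast. Of all genes, 11.2% passed from HFCFD2W to T10D, 30.7% from HFCFD2W to T10W and 10.5% between the inducible experiments. From HFCFD2W to T10D the log2 fold change of *Hnf4a* went from 0.14 to -0.58, a difference of -0.72 (adjusted p = 0.000512). That of *Nr1i2* differed by -0.55 (adjusted p = 0.0135) and that of *Nr1i3* by -1.15 (adjusted p = 0.000416). From HFCFD2W to T10W the differences were -1.14 (adjusted p = 7.04e-07) for *Hnf4a*, -0.68 (adjusted p = 0.000758) for *Nr1i2*, -1.30 (adjusted p = 3.06e-05) for *Nr1i3*, -0.79 (adjusted p = 0.00177) for *Ppara* and -0.31 (adjusted p = 0.0161) for *Rxra*. Under library totals *Nr1i2* passed in neither of these contrasts. *Ppara* did not pass either, and the difference of *Rxra* turned to 0.08.

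Between the inducible experiments the log2 fold change of *Pparg* went from -0.74 to 0.17, a difference of 0.91 (adjusted p = 0.0282), beside -0.42 (adjusted p = 0.0352) for *Hnf4a* and -0.36 (adjusted p = 0.0488) for *Nr5a2*. Neither *Hnf4a* nor *Nr5a2* passed there under library totals. Of 30 fits without 1 mouse, the call was lost in 14 for *Hnf4a*, 21 for *Nr5a2* and 2 for *Pparg*. Cre line, diet and tamoxifen cannot be told apart in the contrasts with HFCFD2W, and diet and tamoxifen cannot in the last.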

How the results depend on the processing

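The fall of *Nr1h4* in HFCFD2W and T10W, of *Nr1i3* and *Ppara* in both inducible experiments and of *Hnf4a*, *Nr0b2* and *Nr1i2* in T10W kept direction and call under every fit that used the threshold of 0.05, library totals and the fits without 1 mouse included. Library totals changed the most counts; under them 2 receptors fell in T10D, 1 rose in T10W, 1 interaction from HFCFD2W was higher to each of T10D and T10W, 2 were lower to T10W and 0 from T10D to T10W, and 1 receptor was lower between *Cebpa* fl/fl livers of T10D and HFCFD2W. *Pparg* and *Nr0b2* had the largest standard errors of the genotype effect in each experiment, and the cause of these shifts was not tested.

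The direction turned under library totals for *Nr1h3* (0.080) and *Nr5a2* (0.11) in T10D and *Nr1h3* (0.046) in T10W. It also turned for the interactions of *Rxra* (0.054) from HFCFD2W to T10D, of *Nr1i2* (0.085), *Nr1i3* (0.086) and *Rxra* (0.026) from T10D to T10W, and of *Nr1h4* (0.20), *Nr5a2* (0.20) and *Rxra* (0.080) from HFCFD2W to T10W, and for *Nr1h3* (0.036) between *Cebpa* fl/fl livers of T10D and HFCFD2W. None of these values had passed with TMM except *Nr1h3* in T10W and the interaction of *Rxra* from HFCFD2W to T10W. Counted with a fold over 2, 0, 1 and 1 receptors fell in the 3 experiments, and with an adjusted p under 0.01, 3 fell in T10D. For interactions lower from T10D to T10W the count was 0 without a filter on low counts, 1 with RLE and 1 with DESeq2, and between *Cebpa* fl/fl livers of these experiments 1 was lower with RLE and 1 with DESeq2.

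Without 1 mouse, the number of receptors that fell was 2 to 3 in HFCFD2W, 4 to 6 in T10D and 9 in T10W. Interactions lower were 3 to 4 from HFCFD2W to T10D, 4 to 5 to T10W and 0 to 2 between the inducible experiments, with 0 to 1 higher in the latter. Between *Cebpa* fl/fl livers, 3 to 4 were higher and 3 to 4 lower in T10D than in HFCFD2W, and 4 to 6 higher and 0 to 1 lower in T10W than in T10D. Values that changed sign without 1 mouse had not passed: *Pparg* in HFCFD2W (-0.13 to 0.071), *Nr0b2* in T10D (-0.38 to 0.31), the interactions of *Nr0b2* from HFCFD2W to T10D (-0.12 to 0.58) and *Nr1h3* from HFCFD2W to T10W (-0.024 to 0.089), and, between *Cebpa* fl/fl livers of the inducible experiments, *Hnf4a* (-0.017 to 0.088) and *Pparg* (-0.31 to 0.0029).

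With the replicate number as a block (replicate block), 1, 5 and 9 receptors fell in the 3 experiments; *Nr1h3* in HFCFD2W and *Pparg* in T10D lost the call, at -0.36 (adjusted p = 0.0908) and -0.70 (adjusted p = 0.0624), and *Pparg* in HFCFD2W turned to 0.087. Mice of the same number were not paired by the labels, and their deviations from group means correlated at -0.33 to 0.04, -0.07 to 0.16 and -0.05 to 0.22 in the 3 experiments.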
